A study of Mus musculus with 4 samples.

Results

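Neurexins, neuroligins and the neurexin-related protein Cntnap2 hold synapses and axon domains together, and BRG1/BRM occupancy was examined here at 6 of their genes: Nrxn2, Nrxn3, Nlgn1, Nlgn2, Nlgn3 and Cntnap2. The genes were chosen by name, not by a measured value, from 21887 protein-coding genes, but with earlier results of these data known. Every occupied region, or island, with at least 1 bp in a gene body or within 10 kb of it was assigned to that gene. This gave 61 of the 20966 islands listed after depolarization with KCl and 1 of the 711 islands listed for basal neurons.

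Chromatin came from primary cortical neurons of wild-type mice, dissociated from E16.5 embryos and kept for 6 days in vitro, and precipitated with the J1 antibody, which binds BRG1 and BRM alike. The KCl culture was held in 50 mM KCl for 1 h after silencing on day 5 with 1 µM TTX, which blocks sodium channels, and 100 µM APV, which blocks NMDA receptors; the basal culture was at the basal KCl level, and whether it was silenced too is not stated in the labels. Each condition had 1 immunoprecipitated (IP) library and 1 input library, with no replicate, so differences between conditions carry no test and no p-value. The total reads of each library are not known here. No listed island held fewer than 18 IP reads (basal) or 20 (KCl).

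BRG1 and BRM are the alternative ATPases of the BAF complex, which slides and evicts nucleosomes. Neurexins sit in the presynaptic membrane and bind neuroligins on the postsynaptic side. Nlgn1 acts mainly at excitatory synapses, Nlgn2 at inhibitory synapses and Nlgn3 at both. Cntnap2, also called Caspr2, clusters potassium channels beside the nodes of Ranvier. Neurexin genes are read from more than a single promoter, giving long alpha and short beta forms.

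As a check of the labelled cell type, genes listed as markers were counted for KCl islands in or within 10 kb. Islands lay at 8 of 8 markers for excitatory cortical neurons, of which Map2, Rbfox3 and Tubb3 mark neurons in general. They lay at 2 of 6 for interneurons and 3 of 5 for astrocytes. The oligodendrocyte lineage had 3 of 5 and microglia 2 of 5. Among all protein-coding genes 38.9% had such an island. Astrocyte and oligodendrocyte markers were above that share too, and gene length was not adjusted for. The counts therefore do not identify the cell type. Occupancy at a marker is not its expression.

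After depolarization 5 of the 6 genes had at least 1 island, and in basal neurons 1 did. Cntnap2 had 24 KCl islands, Nrxn3 had 18, Nlgn1 had 15, Nrxn2 had 3, Nlgn2 had 1 and Nlgn3 had 0. The only basal island lay in Nlgn1. Among all protein-coding genes, 38.9% had a KCl island in the same window and 1.68% a basal island. Both shares were higher for long genes. Among the 227 genes of at least 500 kb, which include Cntnap2, Nrxn3 and Nlgn1, 98.7% had a KCl island and 22.9% a basal island. Having a KCl island is therefore near the background for the 3 long members. The KCl list is longer throughout. Its 711 islands of lowest p, as many as the basal list holds, included 3 at these genes, 2 in Nlgn1 and 1 in Cntnap2.

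Density, counted as islands overlapping the gene body per 100 kb of body, fell as length rose among the 5 genes with an island. Leaving out genes without an island sets a lowest possible density that is higher for shorter genes. Only Nlgn2, with a single island, stood at the lowest value possible for its length. With Nlgn3 counted the order would not hold. Nlgn2, with 14.7 kb the shortest of the 6, had 6.82 KCl islands per 100 kb [0.173 to 38.0], which rests on a single island. Nrxn2 (114 kb) had 2.62 [0.541 to 7.66], Nlgn1 (911 kb) had 1.65 [0.921 to 2.72], Nrxn3 (1612 kb) had 1.12 [0.662 to 1.76] and Cntnap2 (2241 kb) had 1.03 [0.651 to 1.54]. Brackets hold 95% exact Poisson intervals, which treat islands as independent and cover counting error only. Each gene's interval overlapped that of every other gene in this order, so the order is not separated by counting error. Nlgn3, the second shortest of the 6 at 22.2 kb, is outside this order. It had 0 per 100 kb, and its interval reached 16.6.

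Pooled over the 6 genes, 60 islands in 4916 kb of gene body gave 1.22 KCl islands per 100 kb [0.931 to 1.57]. The pooled value of all protein-coding gene bodies was 1.24, and that of genes of at least 500 kb was 1.11. The pooled basal density was 0.0203 per 100 kb in the 6 genes and 0.0306 in all gene bodies. As a group, these adhesion genes thus carried islands at about the density of other genes.

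**Figure D1:**
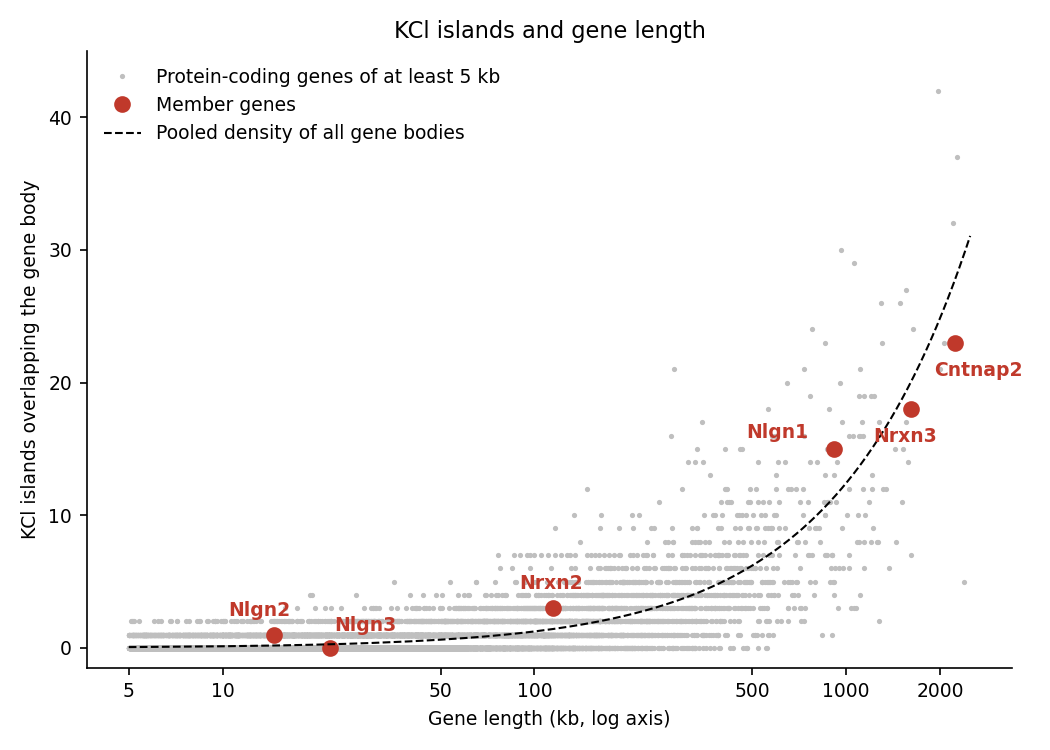
KCl islands overlapping the gene body (y axis, number) against gene length (x axis, kb, log scale) for protein-coding genes of at least 5 kb in grey and the 6 member genes in red. The dashed line is the pooled density of all gene bodies, 1.24 islands per 100 kb, and Nlgn1 lies above it with 15 islands while Nrxn3 and Cntnap2 lie below it with 18 and 23.

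Set against genes of like length, Nlgn1, Nrxn2 and Nlgn2 stood in the upper part of the range and Cntnap2 in the lower part. Of 68 other genes within 20% of the length of Nlgn1, 55 were less dense and 13 denser, and their median was 0.984 islands per 100 kb (interquartile range 0.647 to 1.47). Of 1085 genes of the length of Nrxn2, 972 were less dense and 113 denser. Of 2306 genes of the length of Nlgn2, which had 1 island, 2033 were less dense and 273 denser, and their median was 0. Of 15 genes of the length of Nrxn3, 10 were less dense and 5 denser. Only 6 genes were within 20% of the length of Cntnap2, and 5 of them were denser, with a median of 1.29. Among all 226 other genes of at least 500 kb, however, 117 were less dense than Cntnap2 and 109 denser. The intervals given above for Nlgn1 and Nrxn2 include the medians of genes of like length, 0.984 and 0.922, and Nrxn2 rests on 3 islands. With islands under 5 kb apart joined, Nlgn1 had 12 islands, and the genes of like length were not joined. These positions describe 1 library and were not tested.

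Nlgn1 held both the only basal island and the KCl island of highest fold of the 6 genes. Fold is the IP over control ratio divided by a constant for each list, as deposited by the authors, and its 95% exact interval in brackets lets both read counts vary. No molecular identifiers are described for the reads, so these intervals too cover counting error only. They do not allow for the calling of islands from these same reads, which favours high folds. The gene spans chromosome 3, 25421808 to 26332866 on mm10, and is read from the upper to the lower coordinate. Of its 15 KCl islands the highest fold was found at 25937001 to 25937600, 43.4% of the way along the gene, where 45 IP and 2 control reads were counted (14.1-fold [3.69 to 120]). The next was at 25773601 to 25774400, with 86 IP reads and 7 control reads (7.72-fold [3.59 to 19.8]), and ranked 704 by fold and 223 by p among all KCl islands. A neighbour at 25770801 to 25771800 held 36 IP and 3 control reads (7.54-fold [2.38 to 38.3]). Their wide intervals follow from the few control reads. Islands at 25596401 to 25598600 (115 IP and 24 control reads, 3.01-fold [1.93 to 4.89]) and 26001801 to 26004000 (118 IP and 25 control reads, 2.96-fold [1.91 to 4.77]) had lower folds with narrower intervals.

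The basal island of Nlgn1, at 25773601 to 25775000, began at the same position as the KCl island of 7.72-fold and overlapped it. It held 41 IP and 16 control reads over 1400 bp (2.91-fold [1.60 to 5.56]), or 29.3 IP and 11.4 control reads per kb. The KCl island held 107.5 IP and 8.75 control reads per kb over 800 bp. The FDR in the authors' deposited lists was 3.09e-08 for the basal island and 1.02e-44 for the KCl island. Which input served each list is not stated, so these folds stand side by side and are not compared. This place lies 379 kb from the nearest listed start of Nlgn1, in the body of the gene at 61.3% of its length. In the whole KCl list 2.15% of islands overlapped a basal island, and among the 61 islands here 1.64% did.

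The shared place belongs to a group of islands. With neighbours joined when less than 15 kb apart, 4 KCl islands of Nlgn1 lay within 10.6 kb, from 25768201 to 25778800, with 264 IP reads and 44 control reads in all and folds from 2.48 to 7.72. The basal list had a call only at the third of them in coordinate order.

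**Figure D2:**
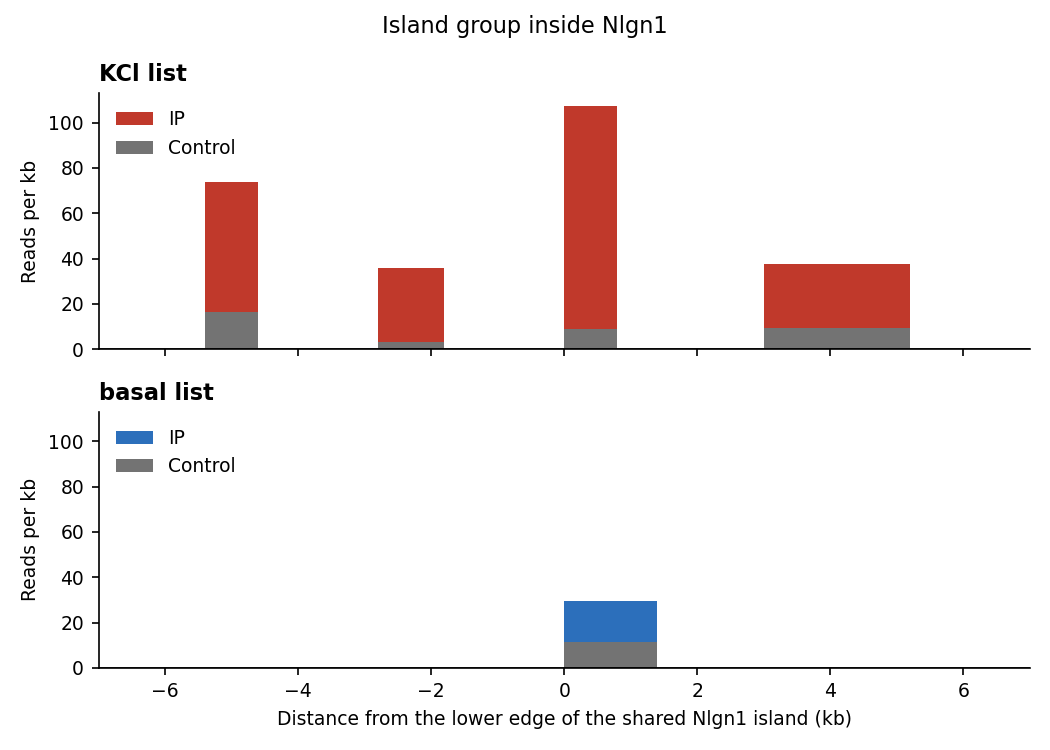
Reads per kb (y axis) in the islands of the group inside Nlgn1 against distance from the lower edge of the shared island (x axis, kb), with IP reads in colour and control reads in grey, the KCl list above and the basal list below. The KCl list has 4 islands here and the basal list 1, at the same place as the highest KCl bar, 107.5 IP reads per kb.

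At gene starts the picture was of broad islands with low fold. RefSeq starts (GRCm38.p6, the build of the islands) were listed for Nrxn3, Nlgn1, Nlgn2 and Cntnap2, and for Nrxn2 and Nlgn3 both gene ends were used instead. KCl islands lay within 2 kb of such a position at 3 of 6 genes, Nrxn2, Nlgn1 and Nlgn2, against 24.4% of all protein-coding genes, and basal islands at 0 of 6, against 0.329%. With islands under 2-fold left out, 0 of the 6 genes had a KCl island there. The promoter sequences show what the islands at Nlgn1 and Nlgn2 cover or adjoin. Those of the first Cntnap2 start and the last Nrxn3 start are given for contrast because no island lay there. Each runs 5′ to 3′ on the gene's strand from 250 bases before the start to 50 after it, from RefSeq, with CpG pairs in capitals.
Nlgn1 first start, chr3:26331860-26332159, minus strand, inside an island: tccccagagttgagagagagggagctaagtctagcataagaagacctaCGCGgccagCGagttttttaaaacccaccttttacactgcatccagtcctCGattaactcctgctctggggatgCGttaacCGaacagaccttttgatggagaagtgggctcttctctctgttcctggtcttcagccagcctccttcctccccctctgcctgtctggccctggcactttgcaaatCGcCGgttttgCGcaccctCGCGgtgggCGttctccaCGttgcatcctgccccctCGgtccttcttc
Nlgn1 second start, chr3:26153937-26154236, minus strand, 186 bp from an island: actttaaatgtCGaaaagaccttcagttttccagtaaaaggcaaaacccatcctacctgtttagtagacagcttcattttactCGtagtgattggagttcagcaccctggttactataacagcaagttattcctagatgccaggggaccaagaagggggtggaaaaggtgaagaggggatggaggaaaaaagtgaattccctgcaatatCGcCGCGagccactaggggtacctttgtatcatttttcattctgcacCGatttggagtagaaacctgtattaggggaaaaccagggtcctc
Nlgn2 start, chr11:69837735-69838034, minus strand, inside an island: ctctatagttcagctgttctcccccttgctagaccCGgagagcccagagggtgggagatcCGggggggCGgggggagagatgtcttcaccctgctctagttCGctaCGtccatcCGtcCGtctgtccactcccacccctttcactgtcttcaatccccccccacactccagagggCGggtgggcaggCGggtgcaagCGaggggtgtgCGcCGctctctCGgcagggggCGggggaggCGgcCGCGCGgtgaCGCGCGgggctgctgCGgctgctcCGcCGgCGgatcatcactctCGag
Nrxn3 last listed start, chr12:89812233-89812532, plus strand, 22.9 kb from an island: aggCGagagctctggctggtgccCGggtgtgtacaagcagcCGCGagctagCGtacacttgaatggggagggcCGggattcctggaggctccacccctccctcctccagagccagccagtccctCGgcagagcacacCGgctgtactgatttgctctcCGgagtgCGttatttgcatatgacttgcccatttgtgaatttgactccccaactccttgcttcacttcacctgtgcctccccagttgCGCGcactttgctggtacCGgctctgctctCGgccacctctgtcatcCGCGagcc
Cntnap2 first start, chr6:45059811-45060110, plus strand, 230 kb from an island: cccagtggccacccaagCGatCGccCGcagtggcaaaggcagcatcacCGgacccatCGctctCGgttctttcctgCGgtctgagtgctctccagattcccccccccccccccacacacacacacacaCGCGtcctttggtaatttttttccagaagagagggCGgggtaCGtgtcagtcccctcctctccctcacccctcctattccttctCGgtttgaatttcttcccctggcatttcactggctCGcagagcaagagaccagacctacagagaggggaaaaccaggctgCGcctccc

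Nlgn2 had the richest of these promoters, with 26 CpG pairs and 68.7% G and C. The first and second starts of Nlgn1 had 14 and 6 CpG pairs, the printed Nrxn3 start had 16 and the printed Cntnap2 start had 14. The starts not printed, which also had no island within 2 kb, had fewer. The first and second Nrxn3 starts had 2 and 6, and the second Cntnap2 start had 3. Across 21263 promoters of protein-coding genes in the table, the median was 24 CpG pairs where a KCl island lay within 2 kb of the start and 8 where none did. Within the 6 genes the starts with and without an island overlapped in CpG number. Both strands were searched for the AP-1 motif TGANTCA, the CRE TGACGTCA and the E-box CANNTG, all bound by activity-regulated factors among others. Of the 8 promoters listed for these genes, 1 held TGANTCA, that of the second Nrxn3 start (88953390), which is not printed, and 0 held TGACGTCA. These motifs occur in 6.99% and 2.23% of all promoters. CANNTG occurred at 5 places in the printed Nrxn3 promoter and at 1 each in those of Nlgn2, the second Nrxn3 start and the second Cntnap2 start, and in 69.0% of all promoters. A match is a description of these letters, not a site.

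The start of Nlgn1 was covered by the widest island of the 6 genes. It spanned 6000 bp (26328801 to 26334800) and held 180 IP and 69 control reads (1.64-fold [1.23 to 2.20]). The long noncoding RNA gene A830092H15Rik overlaps this island or lies within 2 kb of it. The island next to the second start (26150401 to 26153800) held 105 IP and 49 control reads, and its interval included 1 (1.35-fold [0.950 to 1.93]).

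Nlgn2 (chromosome 11, 69823123 to 69837784) had its single island over the start, at 69835601 to 69839800, with 103 IP reads and 38 control reads (1.70-fold [1.16 to 2.54]). Tmem256, a protein-coding neighbour, also lies within 2 kb of that island, so the island cannot be assigned to either gene alone. Of 2306 other genes within 20% of the length of Nlgn2, 746 had a KCl island within 10 kb.

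Nrxn2 (chromosome 19, 6418756 to 6533217) had an island of 4400 bp over its lower-coordinate end (6417601 to 6422000), with 120 IP reads and 45 control reads (1.67-fold [1.18 to 2.41]). Its other islands lay together inside the gene, 3.60 kb apart. They were found at 6496601 to 6498400, with 49 IP reads and 13 control reads (2.37-fold [1.26 to 4.76]), and at 6502001 to 6503200, with 45 IP reads and 14 control reads (2.02-fold [1.09 to 3.98]). The noncoding genes Gm14965 and Gm52381 overlap or adjoin the first and second of these islands.

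The wide islands near gene starts had lower folds than most islands inside the genes. The 4 islands near a start or gene end were 3400 to 6000 bp wide with folds of 1.35 to 1.70, and the 57 others were 400 to 4600 bp wide with a median fold of 2.69. Their medians of IP density were 28.6 and 41.0 reads per kb, and those of control density 10.9 and 9 reads per kb. The whole KCl list had the same order, with a median fold of 1.81 near starts and 2.69 elsewhere and a median width of 2600 and 1400 bp. Only 6.56% of the islands at these genes lay near a start, against 23.6% of the list, and 5 of the 6 genes have bodies longer than the median of 17.2 kb for protein-coding genes.

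**Figure D3:**
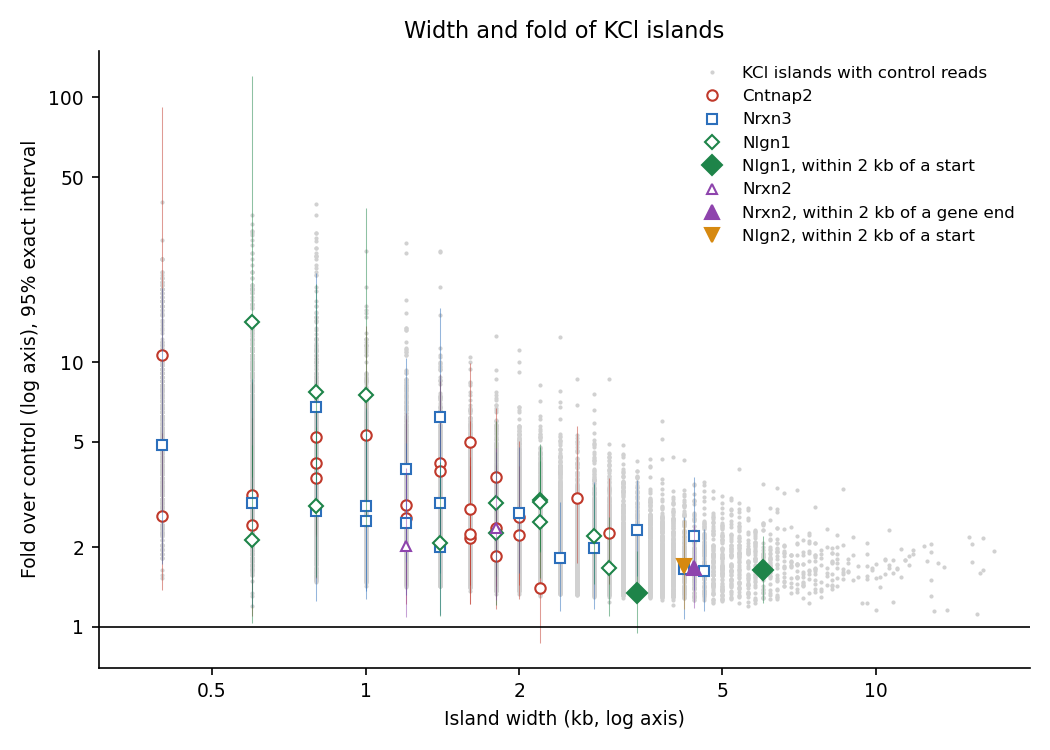
Fold over control (y axis, log scale, bars are 95% exact intervals) against island width (x axis, kb, log scale) for the 61 KCl islands of the member genes, on top of all KCl islands with control reads in grey. Filled symbols, within 2 kb of a start or gene end, sit at 3.4 kb width or more and at 1.70-fold or less, and open symbols spread to 14.1-fold at narrow widths.

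Nrxn3 (chromosome 12, 88722701 to 90334935) carried 18 KCl islands, and all lay inside the gene away from its listed starts. The nearest island to the start at 89812483, which lies 67.6% of the way along the gene, was 22.9 kb away. The starts at 88794504 and 88953390 had their nearest islands at 60.1 and 13.2 kb. The highest fold was at 88939401 to 88940200, counting 54 IP and 5 control reads (6.78-fold [2.73 to 21.7]), beside the noncoding gene Gm40537. It was followed by 89355001 to 89356400, with 69 IP reads and 7 control reads (6.19-fold [2.85 to 16.0]), and 89440601 to 89441000, with 31 IP reads and 4 control reads (4.87-fold [1.72 to 19.0]). The islands at 89920001 to 89921200 (44 IP and 7 control reads, 3.95-fold [1.76 to 10.4]) and 89024201 to 89025600 (61 IP and 13 control reads, 2.95-fold [1.60 to 5.85]) came next. The widest, 4600 bp at 90140401 to 90145000, held 119 IP and 46 control reads and had the lowest fold of the 18 (1.62-fold [1.15 to 2.34]).

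Cntnap2 (chromosome 6, 45060061 to 47301393) carried 23 KCl islands in its body and 1 beyond its end. The first 230 kb after its start held none. The highest fold was at 46909001 to 46909400, with 34 IP reads and 2 control reads (10.7-fold [2.74 to 91.7]). The island at 47050201 to 47051200 held 59 IP and 7 control reads (5.29-fold [2.42 to 13.7]), and the one beyond the end, at 47306801 to 47307600, held 50 IP and 6 control reads (5.23-fold [2.24 to 14.9]). The island at 45454801 to 45456400 held 95 IP and 12 control reads (4.97-fold [2.72 to 9.96]), and that at 45791601 to 45792400 held 73 IP and 11 (4.17-fold [2.20 to 8.71]). The widest, 3000 bp at 47287401 to 47290400, was 2.27-fold enriched [1.46 to 3.65], with 94 IP reads and 26 control reads. At 47277001 to 47279200 the interval included 1 (58 IP and 26 control reads, 1.40-fold [0.868 to 2.32]). That island and the one near the second start of Nlgn1 were the only 2 of the 61 with an interval reaching 1, and were named after their values were seen. All 61 had passed the authors' FDR limit of 0.01 on the same reads, so the intervals above 1 are no separate support.

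No basal island lay within 10 kb of Cntnap2, but 1 lay just outside, 11.8 kb past its end (47313201 to 47315200), with 45 IP reads and 32 control reads (1.60-fold [0.993 to 2.60]). It overlapped no KCl island, and the KCl islands on either side of it, at 47306801 and 47318601, stood apart from it by a few kb. For Nrxn3 the nearest basal island to a gene end was 2043 kb away, for Nlgn2 903 kb and for Nrxn2 570 kb.

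**Figure D4:**
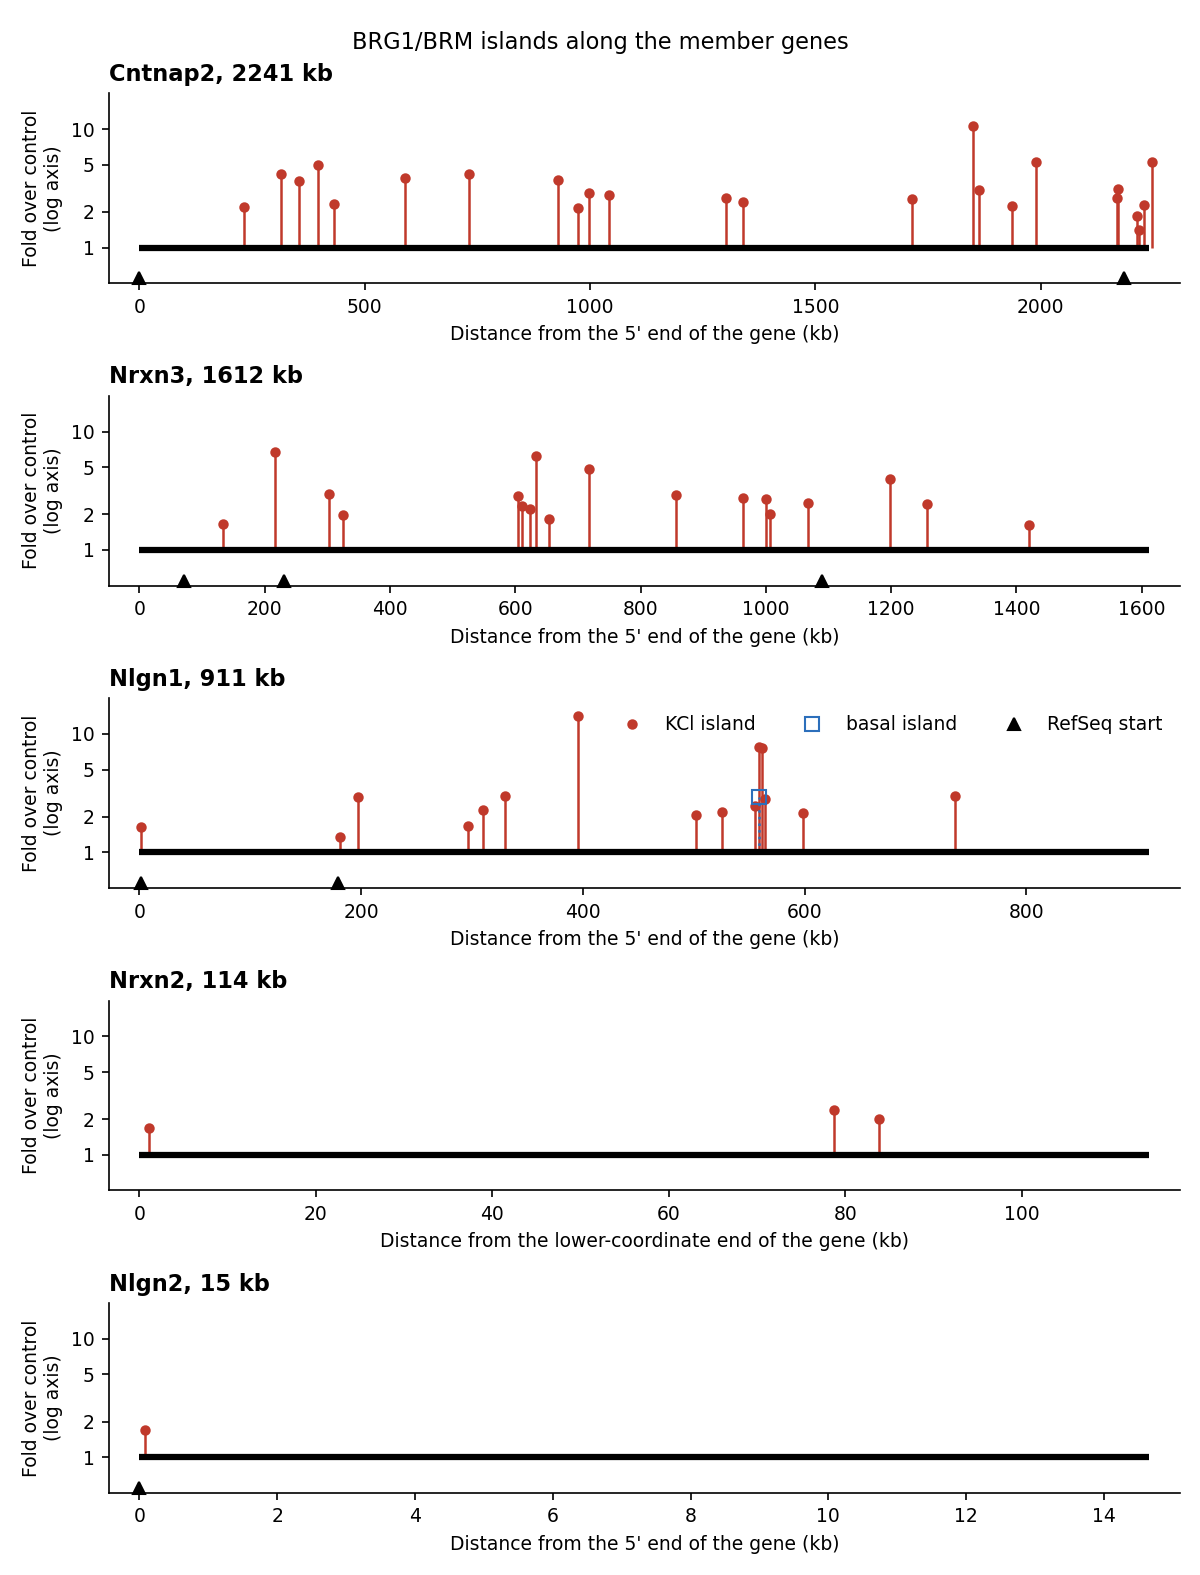
Fold over control of every island (y axis, log scale) against distance along each of the 5 genes with an island (x axis, kb, from the 5′ end, or from the lower coordinate for Nrxn2), with the gene as a black bar and RefSeq starts as triangles. KCl islands are red dots and the single basal island, in Nlgn1, is a blue square; Cntnap2 and Nrxn3 have no island at their first listed start, whereas Nlgn1 and Nlgn2 do.

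Along the gene bodies the 3 long genes differed in where the islands lay. In Nlgn1, 10 of 15 KCl islands were in the middle of 3 equal parts of the body, 4 in the first part and 1 in the last. In Nrxn3, 11 of 18 were in the middle part, 4 in the first and 3 in the last. In Cntnap2, 7 were in the first part, 6 in the middle part and 10 in the last. Across 176 other genes of at least 500 kb with a known strand the islands were spread nearly evenly, with 35.0% in the first part, 33.7% in the middle and 31.3% in the last. Neighbouring islands were counted singly. The middle part of Nlgn1 includes a group of 4 islands within 10.6 kb, and that of Nrxn3 a group of 4 within 30.6 kb. The counts for single genes are small, and their difference from the other long genes was not tested.

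**Figure D5:**
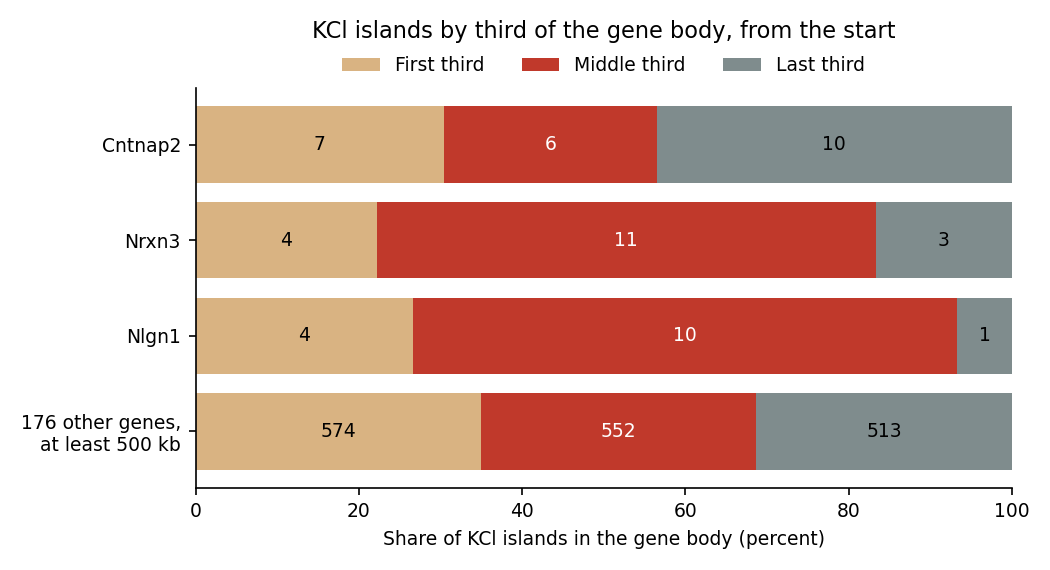
Share of KCl islands in the first, the middle and the last of 3 equal lengths of the gene body, counted from the start (x axis, percent; numbers are islands), for Cntnap2, Nrxn3, Nlgn1 and 176 other genes of at least 500 kb. The middle part holds 66.7% of the islands of Nlgn1 and 61.1% of those of Nrxn3, and 33.7% of those of the other genes.

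Islands of the long genes were unevenly spaced. The median gap between neighbouring KCl islands was 24.4 kb in Nlgn1, 43.1 kb in Cntnap2 and 59.2 kb in Nrxn3. The longest stretches without an island were 375 kb in Cntnap2 (46399801 to 46774800), 277 kb in Nrxn3 (89048801 to 89325800) and 175 kb in Nlgn1 (26153801 to 26328800), the last lying between the islands at its first and second starts. The stretch of Nrxn3 is followed at once by a group of 4 islands within 30.6 kb (89325801 to 89356400) with 306 IP reads and 70 control reads. In Cntnap2 the largest such group was 3 islands within 18.6 kb close to the gene's end (47271801 to 47290400), with 226 IP reads and 77 control reads and folds of 1.40 to 2.27.

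Summed over its islands, Cntnap2 had 1413 IP and 310 control reads in 34200 bp, a pooled fold of 2.86 [2.53 to 3.25] and 41.3 IP reads per kb. Nrxn3 had 1112 and 291 reads in 35000 bp (2.40-fold [2.11 to 2.74], 31.8 IP reads per kb), and Nlgn1 had 1194 and 322 in 30600 bp (2.33-fold [2.06 to 2.64], 39.0 IP reads per kb). Nrxn2 followed with 214 and 72 reads in 7400 bp (1.87-fold [1.42 to 2.47], 28.9 IP reads per kb), and Nlgn2 with 103 and 38 in 4200 bp (1.70-fold [1.16 to 2.54], 24.5 IP reads per kb). Neighbours in this order overlap in their intervals. Only Cntnap2 and Nrxn2 do not, a pair named after the values were seen. Islands near a start or gene end make up a larger part of Nrxn2, whose other islands were 2.37- and 2.02-fold. The part of this in the difference was not tested. Over all 61 islands the pooled fold was 2.45 [2.29 to 2.63] and the median fold 2.60, against a median of 2.40 in the whole KCl list. A fold of at least 2 was found at 50 of the 61 (82.0%, against 66.6% of the list), of at least 3 at 19 (31.1%, against 32.9%) and of at least 5 at 8 (13.1%, against 9.93%). The members' share was thus above that of the list at the lowest and highest of these limits and below it at the middle one. The list holds more of the low-fold islands near starts (23.6%, against 6.56% here). Away from starts the median fold was 2.69 in both.

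Nlgn3 (chromosome X, 101299179 to 101321350) had no island in either list, and its nearest KCl island was 318 kb away. Of 2500 other genes within 20% of its length, 877 had a KCl island within 10 kb. The X chromosome was sparse as a whole. Of 966 protein-coding genes on X, 88 (9.11%) had a KCl island within 10 kb, against 8427 of 20665 autosomal genes (40.8%), and the densities were 0.228 and 1.29 per 100 kb of gene body. The part of this chromosome-wide difference in the result for Nlgn3 was not tested, and a gene without a listed island may still be bound.

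The 3 genes most like each member in KCl density, among genes within 20% of its length, were picked on a single library. For Nlgn1 (1.65 islands per 100 kb) they were Robo1 (1.57), an axon guidance receptor gene, Hdac9 (1.73), a histone deacetylase gene, and Adgrl3 (1.73), the latrophilin 3 gene. Each of them had a basal island, with 2 for Robo1, 2 for Hdac9 and 1 for Adgrl3. For Nrxn3 (1.12) they were Pcdh15 (1.09), Gpc5 (1.05) and Rbfox1 (0.982), which encode a protocadherin, a glypican and a splicing regulator, and of which Gpc5 had 2 basal islands and the others 0. For Cntnap2 (1.03) they were Macrod2 (1.05), Lrp1b (1.12) and Lsamp (1.46), each with 1 basal island. For Nrxn2 (2.62) they were Me1 (2.62), Zmynd8 (2.61) and Plppr5 (2.61), with 1 basal island at Plppr5. Among all other genes within 20% of the member's length, a basal island lay at 12 of 68 for Nlgn1 and 5 of 15 for Nrxn3. For Cntnap2 it was 4 of 6 and for Nrxn2 44 of 1085. Whether basal islands go with KCl density was not tested.

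The partners of these proteins were counted from 3 lists. Of 19 neurexin ligands and partners, such as the leucine-rich repeat proteins, cerebellins and neurexophilins, 17 had a KCl island within 10 kb, 15 had one near a start and 0 had a basal island. The shares of all protein-coding genes were 38.9%, 24.4% and 1.68%. Mdga2, whose product binds neuroligins and blocks their pairing with neurexins, had 19 KCl islands (2.49 per 100 kb of body), the calsyntenin gene Clstn2 had 10 (1.70), and the glutamate receptor gene Grid1 had 5 (0.655). Cbln2 and Nxph3, both short, had none, while Cbln1 and Lrrtm2, also short, had 1 and 2.

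Of 17 scaffold genes that act inside the synaptic terminals, 15 had a KCl island, 13 near a start, and 6 had a basal island. The shares of all genes were the same 38.9%, 24.4% and 1.68%. Basal islands were found at 22.9% of genes of at least 500 kb. Of 2428 genes of at least 100 kb, leaving out Nrxn2, 1992 had a KCl island and 183 a basal island. Dlg2, the gene of the postsynaptic scaffold PSD-93, had 42 KCl islands (2.13 per 100 kb), Magi2 had 26 (1.75), Magi1 had 11 (1.81) and Dlg1 had 6 (2.38). Dlg2, Magi2 and Magi1 had 1 basal island each. Dlg3 and Shank3 had no KCl island.

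Of 15 relatives and partners of Cntnap2, 14 had a KCl island, 8 near a start, and 1, the contactin gene Cntn5, had a basal island, beside the same shares of all genes. Cntn5 had 17 KCl islands (1.34 per 100 kb), Cntn4 had 7 (0.685), the close relative Cntnap5a had 7 (0.776) and Cntn3 had 5 (1.25). The contactin gene Cntn2, whose product pairs with Cntnap2 on axons, had none. The median gene length was 60.6 kb among the neurexin partners, 191 kb among the scaffolds and 313 kb among the relatives of Cntnap2, against 17.2 kb for all protein-coding genes, and the share with an island was not adjusted for it. The genes without an island were named after their counts were seen.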

How the data were processed

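BRG1/BRM ChIP-seq islands of 2 IP libraries were used, and separate input files were not used here. The submitters' processing notes name BWA, mm10 (GRCm38) and, for the islands, SICER 1.0. Per the deposited files' names, windows were 200 bp, gaps up to 600 bp and the FDR limit 0.01. Each island has the authors' deposited IP and control read counts, not normalized. The deposited p-value was recomputed within 1% as a Poisson tail over scaled control reads for 100% of islands with control reads. The authors' deposited fold equals the IP/control ratio divided by a constant for each list, 0.880 (basal) and 1.59 (KCl). The labels do not say which input was the control.

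Coordinates were made 1-based. Overlaps of at least 1 bp were counted with Python 3.11.15 and pandas 2.3.3, checked on simulated islands and against bedtools 2.31.1. Intervals came from scipy 1.17.1. Genes were RefSeq protein-coding genes of GRCm38.p6, and exon or intron placement was not used here. Island sequences are not given because no genome sequence was used here. Members with up to 12 islands have every island named, the others the 5 of highest fold with at least 20 IP reads, those at starts and the widest; partner genes are the 4 per list with most KCl islands, of which 1 is not reported here. Members and lists were chosen with earlier results of these data known. Alternatives covered FDR, fold, window, list length and joining.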

Additional observations from a re-analysis of the deposited data

How the results depend on the processing

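With 1 library per condition no result has a replicate check. Total depth is not known, so absence of a basal call cannot be told apart from a shallower or less enriched library. Shortening the KCl list to the 711 islands of the basal list left 3 KCl islands at the members whether ranked by p or by fold, in 2 genes (2 in Nlgn1 and 1 in Cntnap2), 0 members with an island at the start and a pooled density of 0.0610 per 100 kb. The overlap of the basal island with a KCl island remained under both rankings. A fold of at least 2 left 0 members with an island at the start. Widening the window to 50 kb gave 2 basal islands in 2 members, through the island past Cntnap2. Keeping islands with at least 10 control reads lowered the pooled fold to 2.22. Of 60 comparisons of the main counts, densities and folds with an alternative, 48 stayed close to the main value (counts within 1.5 times, the density and the pooled fold inside their 95% intervals) and 12 did not. No paired analysis was possible because each condition has 1 library.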
